A study of Mus musculus with 6 samples.

Results

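The immediate early transcription factors described here are 10 genes chosen by symbol: Fos, Fosb, Fosl1, Jun, Junb, Egr1, Egr2, Ier2, Ier3 and Myc. Of these, 9 had a probe set annotated to 1 gene, and all 9 passed the filter on low values that kept 20169 of 30675 genes. The probe set that holds Junb also lists Prdx2, so no value is given to Junb. The name of the set is loose for Ier3, whose product acts mainly on cell survival and kinase signalling rather than as a DNA-binding factor.

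Bone marrow stromal cells (BMSCs) are the marrow cells that support blood formation and can give rise to bone, fat and cartilage cells. The labels give 2 groups of 3 Affymetrix arrays, one of cells from mice aged 18 months and one of cells from mice aged 3 months, with no strain, sex or treatment stated. In both groups, collagenase was used to free cells from crushed femurs, cells carrying Sca-1 and CD29 but neither CD45 nor CD11b were sorted, and these were cultured beyond the first passage before RNA extraction. The arrays of an age are called biological replicates without saying whether they stem from separate animals, so a p-value here reflects only how far these arrays differ, which may be technical.

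Immediate early genes are transcribed within minutes of a growth factor, cytokine or stress signal, from promoters already occupied by factors such as SRF with its ternary complex partners and CREB, and need no new protein for it. Their mRNAs are short-lived, and many of the products are transcription factors: Fos and Jun proteins pair as AP-1, Egr proteins are zinc finger factors that bind GC-rich sites, and Myc pairs with Max. In mouse bone, Fos is required for osteoclast formation, and Fosl1 in osteoblasts supports matrix production. The comparison asks whether the level of these genes in sorted and cultured cells differs with the age of the donor. Whether the cells were at rest or responding to a signal at RNA extraction is not stated.

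Values are log2 expression values, so a difference of 1 is a doubling. Array medians lay between 5.39 and 5.40 at 18 months and between 5.39 and 5.44 at 3 months, and the number of arrays limits the precision. Negative control probe sets lay below 7.61 in 95% of cases, and values under this level cannot be told from background here, so no fold is given for a gene with a mean below it. The control probe sets moved with age as well: the median of their differences was -0.26 for negative and -0.15 for positive controls. Array medians of the negative controls lay between 4.62 and 4.67 at 18 months and between 4.93 and 5.06 at 3 months. The 23 classes of antigenomic probes, designed to match nothing in the mouse genome, differed by between 0.01 and 0.29. Their own 95th percentile, 8.94, is above the means of Jun and Ier2 in both ages. Folds are given without regard to that level. Spike-in probe sets differed by between -0.33 and 0.33, single positive controls by between -1.21 and 1.48, and single negative controls by between -2.36 and 1.86. Of the sort markers, Itgb1 (CD29) read 11.76 in 18-month and 11.86 in 3-month cells, Ptprc (CD45) read 3.62 in 18-month and 3.65 in 3-month cells, and Itgam (CD11b) read 5.24 in 18-month and 5.26 in 3-month cells. Ly6a (Sca-1) was not analysed here. Col1a1, Col1a2, Vim and Pdgfrb, which stromal cells express, had means above 11.5 in both ages, whereas Lepr, Thy1, Eng and Nt5e lay within the negative control range. All 40 measured markers of macrophages, endothelial cells, neutrophils and lymphoid cells lay within that range in both ages. Batch and age cannot be told apart, since no batch is given in the sources used here.

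The measured members did not move as a block with age. Jun, Egr2 and Fos were higher in 18-month cells, Ier3, Myc and Fosl1 were lower, and Egr1, Ier2 and Fosb did not pass (limma, Benjamini-Hochberg adjusted p under 0.05 over all 20169 genes). Across all genes tested, 18.4% were called higher and 22.1% lower by the same rule, 40.6% in all, so 3 higher and 3 lower of 9 is a share of the same order. The arrays of the 2 ages did not overlap in 6 of the 9 members, beside 51.3% of all genes. The median difference of the members was 0.03, against 0.01 over all genes tested. Only Ier3 and Egr2, of the members called, differed by more than the largest antigenomic shift of 0.29, and 20.3% of all genes did so. The largest spike-in difference, 0.33, was above the 0.31 of Egr2. In bulk RNA, a lower value from fewer cells that express a gene and one from less RNA per cell cannot be told apart.

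**Figure D1:**
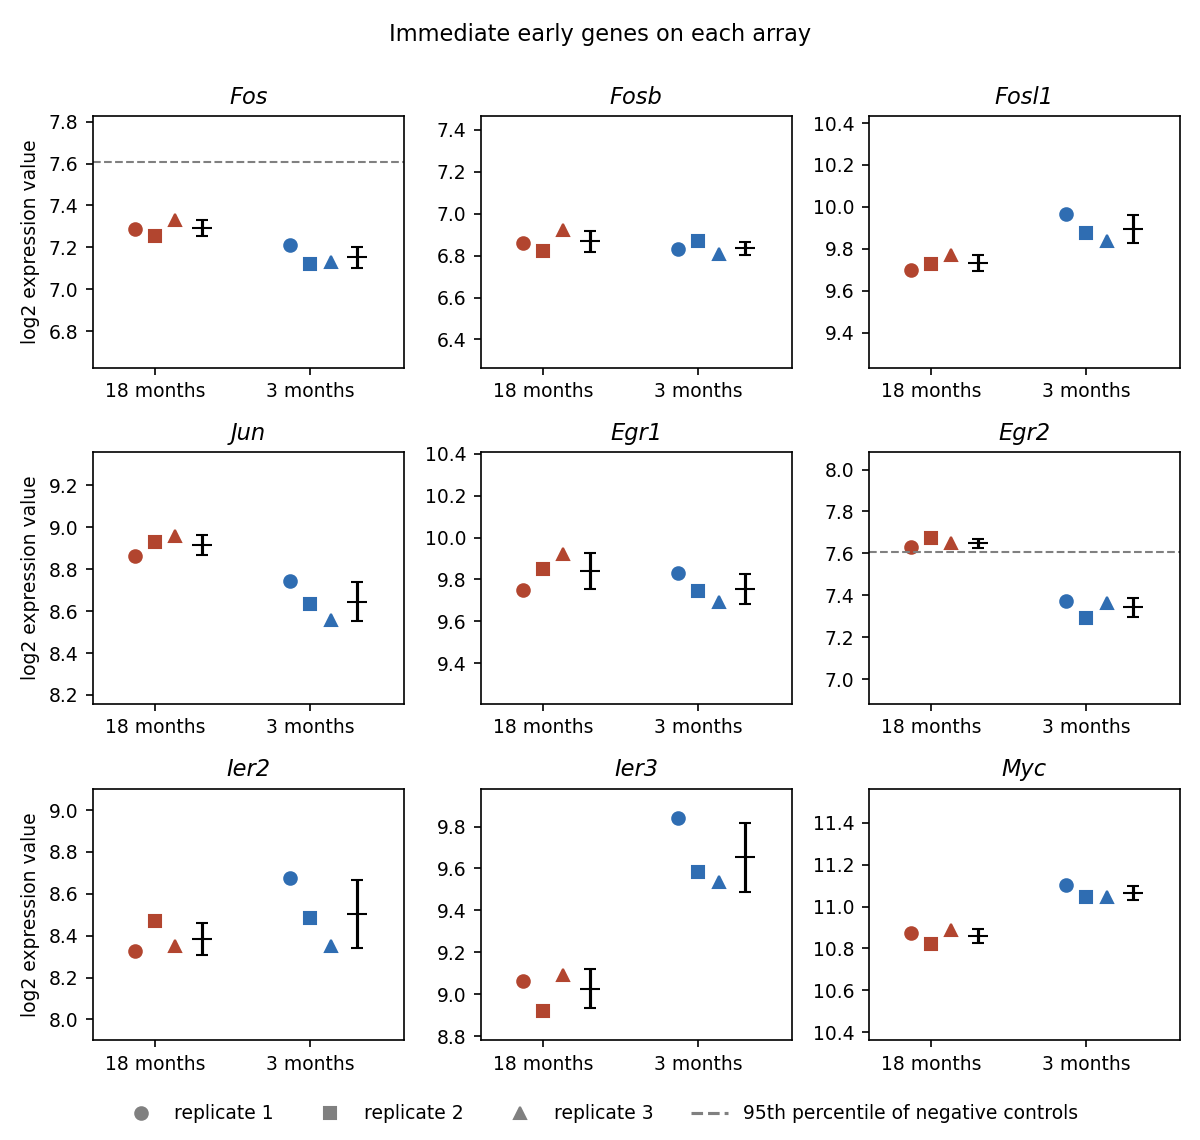
Log2 expression value of each of 9 immediate early genes on every array, with 18-month arrays on the left and 3-month arrays on the right of each panel; bars give the mean and SD of 3 arrays, and every panel spans the same range of log2 values. Ier3 lies between 8.92 and 9.09 at 18 months and between 9.54 and 9.84 at 3 months, while Fos stays under the dashed 95th percentile of the negative controls, and Fosb lies below that line, which is outside its panel.

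RefSeq promoter windows of build GRCm38.p6 were searched for 6 of the 10 members (Fos, Fosb, Jun, Junb, Egr2 and Ier3). The search covered the 250 bases before each start on both strands. Egr1 was left out of this search, so nothing is said of its promoter. The windows of Ier3, Jun and Fos are shown because these genes were called and their windows hold matches to motifs of signal-responsive promoters. The motifs searched were the CArG box bound by SRF, the cAMP response element TGACGTCA (CRE) and its shorter form TGACG, the AP-1 or ATF sites TGANTCA and TGACNTCA, the EGR site GCGNGGGCG, the MYC E-box CACGTG, the TATA box TATAAA, the GC box GGGCGG and the NF-kappaB site. The form TGACNTCA was added after the windows had been seen, and each CRE matches both it and TGACG. Capitals mark every match, 5′ to 3′ on the strand of the gene.
Ier3 (chr17:35821463-35821712, plus strand): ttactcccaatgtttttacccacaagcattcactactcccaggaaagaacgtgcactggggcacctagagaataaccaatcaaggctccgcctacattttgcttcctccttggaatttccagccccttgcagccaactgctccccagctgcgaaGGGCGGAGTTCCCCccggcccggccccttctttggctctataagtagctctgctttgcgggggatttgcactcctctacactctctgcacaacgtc
Jun (chr4:95052223-95052472, minus strand): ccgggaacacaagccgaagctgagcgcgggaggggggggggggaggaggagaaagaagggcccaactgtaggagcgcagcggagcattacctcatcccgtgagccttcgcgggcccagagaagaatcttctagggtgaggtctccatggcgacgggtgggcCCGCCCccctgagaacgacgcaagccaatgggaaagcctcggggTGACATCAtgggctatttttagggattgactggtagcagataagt
Fos (chr12:85473640-85473889, plus strand): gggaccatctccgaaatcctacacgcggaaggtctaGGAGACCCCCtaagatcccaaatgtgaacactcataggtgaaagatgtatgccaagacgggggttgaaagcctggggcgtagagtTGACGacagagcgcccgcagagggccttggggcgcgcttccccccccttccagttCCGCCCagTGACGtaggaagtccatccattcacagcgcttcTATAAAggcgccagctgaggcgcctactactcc
In Ier3, an NF-kappaB match on the minus strand, 92 to 83 bases before the start, overlaps a GC box. In Jun, the site TGACATCA lies 45 to 38 bases before the start, and a GC box stands further upstream. In Fos, the shorter CRE form occurs 129 to 125 and 66 to 62 bases before the start, beside a TATA box, a GC box and an NF-kappaB match. Of all 32851 windows of this length, 3.9% hold an NF-kappaB match, 7.49% TGACNTCA, 17.8% TGACG, 12.4% a TATA box and 32.7% a GC box. Each match describes the letters of the window and is not a measured binding site.

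Egr2 has 5 RefSeq windows, of which 4 hold a CArG box, a motif found in 1.47% of all windows. The 2 distinct boxes are shown in capitals, each within 30 bases on the plus strand.
Egr2 (chr10:67537484-67537513): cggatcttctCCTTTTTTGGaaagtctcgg
Egr2 (chr10:67537787-67537816): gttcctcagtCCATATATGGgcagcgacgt
No CArG box was found in the 250-base windows of Fos, Fosb, Jun, Junb or Ier3, which says only that these letters are not in those windows. The full CRE, at 1.55% of all windows, and the AP-1 site TGANTCA, at 6.75%, were in none of the members' windows that were searched. An EGR site, held by 4.7% of windows, was in that of Fosb, and a MYC E-box, held by 6.02%, was in 1 window of Egr2.

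Among the AP-1 members, Jun was higher in 18-month cells and Fosl1 was lower. Jun, the main partner of the Fos proteins and a target of JNK kinases, read 8.86, 8.93 and 8.96 in 18-month arrays, against 8.74, 8.64 and 8.56 in 3-month arrays. Every 18-month array was above every 3-month array. The difference was 0.27, or 1.21-fold (limma, adjusted p = 0.00282), with a 95% interval of 0.15 to 0.39. It is smaller than the largest antigenomic shift, which is also upward, and that shift's part in it was not tested.

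Fosl1, which encodes Fra-1, a Fos protein without a strong activation domain that stays on longer than Fos after a growth signal, read 9.70, 9.73 and 9.77 in 18-month arrays. In 3-month arrays it read 9.97, 9.87 and 9.84. The groups did not overlap, with all 18-month arrays lower, and Fosl1 fell by 0.16, which is 1.12-fold (limma, adjusted p = 0.0114). That size is close to the median positive control difference of -0.15. Without 18-month replicate 1 the adjusted p was 0.0563, and after median centring it was 0.051, with a range of 0.00477 to 1 over the 15 alternatives.

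Fos itself was dim. It read 7.29, 7.26 and 7.33 in 18-month arrays, against 7.21, 7.12 and 7.13 in 3-month arrays, all within the negative control range. The 18-month arrays were all above the 3-month arrays, but by little: the difference was 0.14 (limma, adjusted p = 0.0446). The call was lost when any array other than 3-month replicate 1 was left out, with adjusted p values of 0.062 to 0.167, and in 9 of the 15 alternatives in all. Fosb, the Fos relative known for its stable truncated form in neurons, was within the same range at 6.86, 6.82 and 6.92 in 18-month arrays and 6.83, 6.87 and 6.81 in 3-month arrays. The 2 ages overlapped, and its difference of 0.03 had an interval of -0.08 to 0.14 (limma, adjusted p = 0.666).

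The Egr genes encode zinc finger factors whose transcription follows ERK signalling and SRF. Egr1, the best known of them, read 9.75, 9.85 and 9.92 in 18-month arrays, against 9.83, 9.74 and 9.69 in 3-month arrays. The ages overlapped: the lowest 18-month array lay below the highest 3-month array. The difference was 0.08 with an interval of -0.04 to 0.20 (limma, adjusted p = 0.258), so the data allow a rise of up to 0.20 and a fall of up to 0.04.

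Egr2, also called Krox-20 and known for its role in hindbrain patterning and myelination in mice, read 7.63, 7.67 and 7.65 in 18-month arrays. In 3-month arrays it read 7.37, 7.29 and 7.36, within the negative control range. All 18-month arrays stood just above that range and all 3-month arrays below it. The difference was 0.31 with an interval of 0.21 to 0.41 (limma, adjusted p = 0.000464), between measured values of which the 3-month ones may be background. It was 0.25 after quantile normalization, and its sign and call were kept whichever array was left out.

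Ier3 showed the widest gap of the 9 members. This gene, also called IEX-1, encodes a short-lived protein that modulates apoptosis and ERK signalling and is induced by NF-kappaB and growth factors. It read 9.06, 8.92 and 9.09 in 18-month arrays, against 9.84, 9.58 and 9.54 in 3-month arrays. All 18-month arrays were lower than all 3-month arrays. Ier3 fell by 0.63, or 1.54-fold, with an interval of -0.81 to -0.44 (limma, adjusted p = 0.000274), and only 1.55% of tested genes had a lower difference. It was the single member that passed when the difference was tested against 0.3 rather than 0 (limma, adjusted p = 0.0191), a test that 5.79% of all genes passed upward and 4.03% downward. Without 3-month replicate 1, its brightest array, the difference was -0.53.

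Ier2, a nuclear protein induced with Fos and Egr1 by serum, read 8.33, 8.47 and 8.35 in 18-month arrays, against 8.67, 8.48 and 8.35 in 3-month arrays. The 2 ages overlapped, with 3-month replicate 1 above every other array and 18-month replicate 1 below them all. The difference was -0.12 with an interval of -0.30 to 0.06 (limma, adjusted p = 0.282). It rested on which 3-month arrays were used, being -0.20 without replicate 3 (adjusted p = 0.0427) and -0.03 without replicate 1 (adjusted p = 0.696), and adjusted p over the 15 alternatives ran from 0.0427 to 1.

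Myc, which drives ribosome production and cell growth, was bright on all arrays. It read 10.87, 10.82 and 10.89 in 18-month arrays, against 11.10, 11.05 and 11.04 in 3-month arrays. The groups did not overlap, and arrays of 1 age differed little, with an SD of 0.03 in both ages. Myc fell by 0.20, or 1.15-fold, with an interval of -0.27 to -0.13 (limma, adjusted p = 0.000778). The interval includes the median positive control difference of -0.15.

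**Figure D2:**
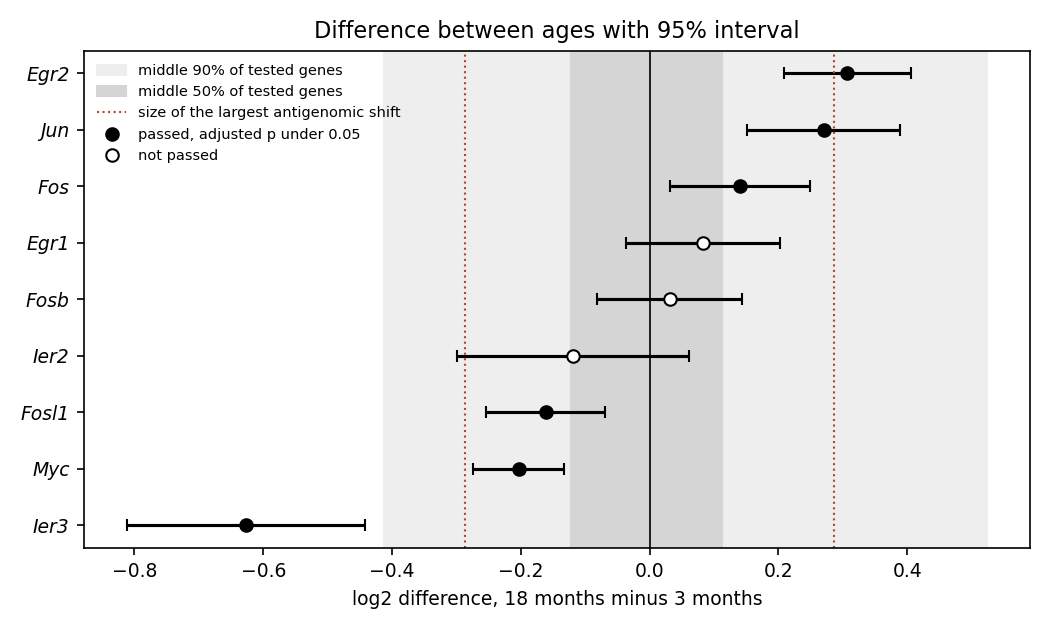
Log2 difference, 18 months minus 3 months, of each member with its 95% interval from limma; shaded bands hold the middle 50% and 90% of the 20169 tested genes, and dotted lines mark the size of the largest antigenomic shift, 0.29. Ier3 at -0.63 is the only member outside the 90% band, which runs from -0.41 to 0.52.

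The 3-month arrays lay further apart than the 18-month arrays in 6 of the 9 members, all but Fosb, Egr1 and Myc. The share of all tested genes where this held was not counted, so it cannot be called particular to the members. The widest 3-month ranges of the members were those of the Ier genes. The range between 3-month arrays was 0.33 for Ier2 and 0.31 for Ier3, wider than in 91.2% and 89.5% of tested genes, beside ranges of 0.14 and 0.17 in 18-month arrays. The pattern that follows was noticed after the values were seen. Replicate 1 was the highest of the 3-month arrays in 8 of 9 members, Fosb being the exception, and in 43.8% of all tested genes. Among 29 other immediate early genes it was the highest in 16. At 18 months, replicate 3 was the highest in 7 of 9 members and in 41.0% of all genes. Members measured on the same array share its RNA and its hybridisation, so these counts are not independent.

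**Figure D3:**
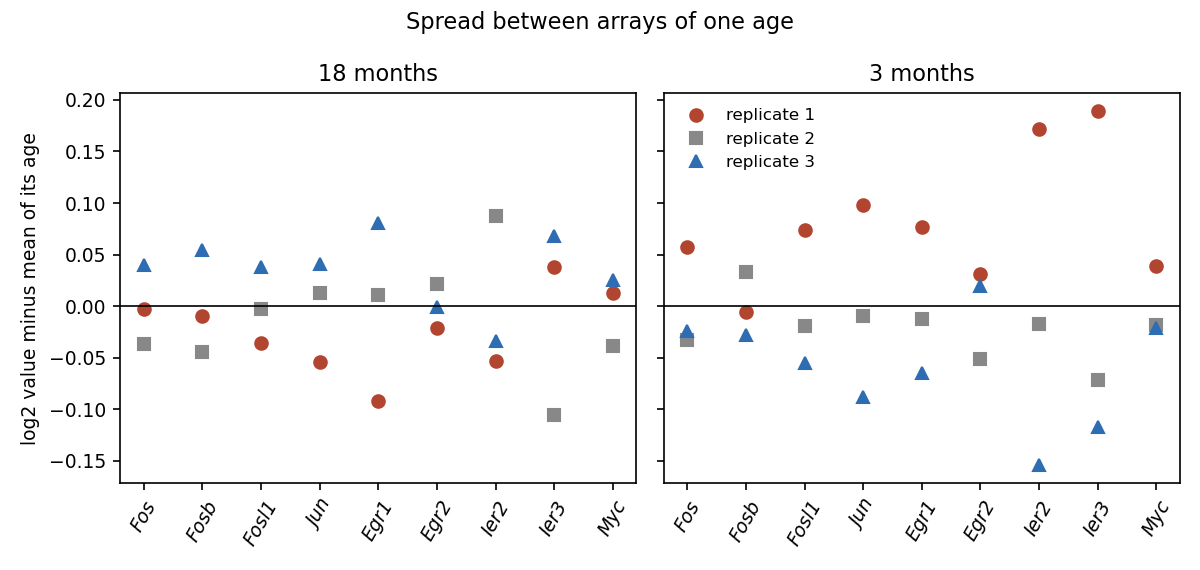
Log2 value of each member on each array minus the mean of the 3 arrays of its age, with 18-month arrays on the left and 3-month arrays on the right. At 3 months replicate 1 stands above replicates 2 and 3 in 8 of 9 members, most clearly for Ier2 and Ier3.

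Leaving out 3-month replicate 1 moved the members' differences between ages by at most 0.09 on the log2 scale, for Ier3. Without it Jun differed by 0.32, Egr2 by 0.32, Fos by 0.17, Fosl1 by -0.12, Myc by -0.18 and Egr1 by 0.12. The counts of members called, 3 higher and 3 lower, were the same without that array.

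For Fos, Egr1 and Myc, the 3 tested genes with the most similar pattern were found by the root mean square distance of centred log2 values over the 6 arrays. Those nearest to Fos were Nfyc, Gnai2 and Slc46a1, at distances of 0.0055, 0.0082 and 0.0137. Those nearest to Egr1 were Tex261, Dnajc28 and Ghdc, at 0.026, 0.0262 and 0.0264. Those nearest to Myc were Tm2d1, Rpl36-ps2 and Gm6457, at 0.0084, 0.0087 and 0.009. No other immediate early gene is among them. With only 3 genes kept of the 20169 tested, that says little about whether such genes move together.

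Other genes of the immediate early class reached larger differences than the members, in both directions. Their list is longer and was chosen with earlier results of these data known, so its extremes say little about the class. Of 29 measured genes in a list of other immediate early genes, 15 were higher in 18-month cells, 5 were lower and 9 did not pass. Their median difference was 0.20. Across all genes tested, 18.4% were called higher and 22.1% lower. Of the 15, Arc, Cebpd and Trib1 had both means within the negative control range, and Ier5l and Zfp36 had their 3-month means within it. Ccn2, a matrix-associated signalling protein, was 3.88-fold higher and Sgk1, a serum-induced kinase, 3.32-fold higher. Klf2, a zinc finger factor, differed by 0.67 from a 3-month mean within the negative control range. Ptgs2, the inducible cyclooxygenase, was 3.46-fold lower, the kinase gene Plk2 was 1.64-fold lower and Atf3, a stress-induced AP-1 relative, was 1.43-fold lower. Egr3 read 7.33 in 18-month and 7.32 in 3-month cells, within the negative control range (limma, adjusted p = 0.889).

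Among 12 measured AP-1 partners and relatives, 3 were higher and 5 lower, and the median difference was -0.02. By the same test, 18.4% of all genes were higher and 22.1% lower. Of the 3 higher genes, Batf and Batf2 had both means within the negative control range. The large Maf protein gene Maf was 1.71-fold higher. The 3 small Maf genes Maff, Mafg and Mafk were 1.40-fold, 1.35-fold and 1.23-fold lower, and Atf2, a partner of Jun, was 1.34-fold lower. Fosl2 and Jund, which can stand in for Fos and Jun in AP-1, did not pass: Fosl2 differed by -0.04 (interval -0.16 to 0.07) and Jund by -0.0027 (interval -0.14 to 0.13).

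Of 17 measured upstream kinases and factors, 9 were lower and 3 higher, beside 22.1% and 18.4% of all genes, with a median of -0.09. Srf, which binds the CArG box, differed by 0.16 (limma, adjusted p = 0.039). Rps6ka3, a kinase downstream of ERK, was 1.30-fold lower, the ERK pathway kinase genes Braf and Map2k2 were 1.24-fold and 1.15-fold lower, and Mrtfb, a partner of SRF, was 1.33-fold lower. Mapk8, which encodes a JNK kinase, differed by -0.51 with an 18-month mean within the negative control range, and Mapk14, a p38 kinase gene, was 1.20-fold higher. The count of lower genes was 5 without 18-month replicate 2, and that of higher genes, 3, ran from 2 to 5 over the alternatives with a test against 0: it was 5 without 3-month replicate 1 and after quantile normalization, and 2 when any other array was left out, with the replicate block, with no filter and with no intensity trend.

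All 19 feedback inhibitors on the list were measured, of which 9 were higher and 7 lower, with a median of 0.16. The shares over all genes were 18.4% higher and 22.1% lower. Nab1 and Nab2, which bind Egr proteins and repress their activity, were 1.30-fold and 1.12-fold higher. Spry1, an inhibitor of receptor tyrosine kinase signalling, was 2.41-fold higher, and Zfp36l1, which promotes decay of short-lived mRNAs, was 2.10-fold higher. Zfp36, its relative, differed by 0.69 from a 3-month mean within the negative control range. The MAP kinase phosphatase genes went both ways: Dusp4 was 2.84-fold lower, Dusp5 was 1.52-fold higher, Dusp1 was 1.15-fold higher, and Dusp10 differed by 0.70 from a 3-month mean within the negative control range.

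Of 13 measured AP-1 target genes, 8 were higher and 2 lower, beside 18.4% and 22.1% of all genes, with a median of 0.19. The 8 include Mmp3, within the negative control range in both ages, and Plau, with a 3-month mean within it. Mmp13, a collagenase of bone and cartilage, differed by 1.25 from a 3-month mean within the negative control range, and Timp1 was 1.87-fold higher. The metallothionein genes Mt2 and Mt1 were 1.76-fold and 1.32-fold higher. The 2 lower genes were Plaur, the urokinase receptor, at 1.68-fold, and Vegfa, at 1.53-fold.

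Myc and most genes on a list of its targets were lower in 18-month cells, and a link between them was not tested. Of 20 measured MYC target genes, 16 fell and 2 rose, where 22.1% of all genes were called lower and 18.4% higher. Their median was -0.26, against 0.01 over all genes tested and -0.15 in the positive controls. The list was chosen with earlier results of these data known, and its genes are bright, while the shares over all genes include dim ones. With a stricter filter on low values, 4260 of 14178 genes were called lower and 3298 higher. Tfrc, the transferrin receptor, was 1.73-fold lower. Nolc1, Ddx21, Pes1 and Ncl, which act in ribosome production, were 1.37-fold, 1.30-fold, 1.33-fold and 1.31-fold lower, and Ppat, of purine synthesis, 1.37-fold lower. The 2 that rose were Odc1 and Bop1, named after their values were seen, at 1.15-fold and 1.21-fold. In the MYC network, a list of 11 related genes, Max differed by 0.0035 (interval -0.09 to 0.09). Mxd4, an antagonist of Myc, was 2.17-fold higher, and Mga and Mnt were 1.23-fold and 1.28-fold lower. Mycl was lower by 0.26, within the negative control range at 18 months. The count of higher network genes, 1, was 3 without 3-month replicate 1 and 2 after quantile normalization.

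Of 9 measured heat shock genes, which stressed cells also induce, 5 were lower and 2 higher, with a median of -0.11. Over all genes, 22.1% were lower and 18.4% higher. Hsph1, a co-chaperone of Hsp70, was 1.46-fold lower, and Hspe1 and Hspd1 were 1.17-fold and 1.15-fold lower. The 2 higher genes, Hspa1a and Hspb1, differed by 0.36 and 0.17, and their means in both ages lay within the negative control range. The count of higher genes was 1 when any 18-month array or 3-month replicate 2 was left out and after quantile normalization. These lists share some genes, as Atf3, Maff, Fosl2 and Zfp36 each stand in 2 of them.

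**Figure D4:**
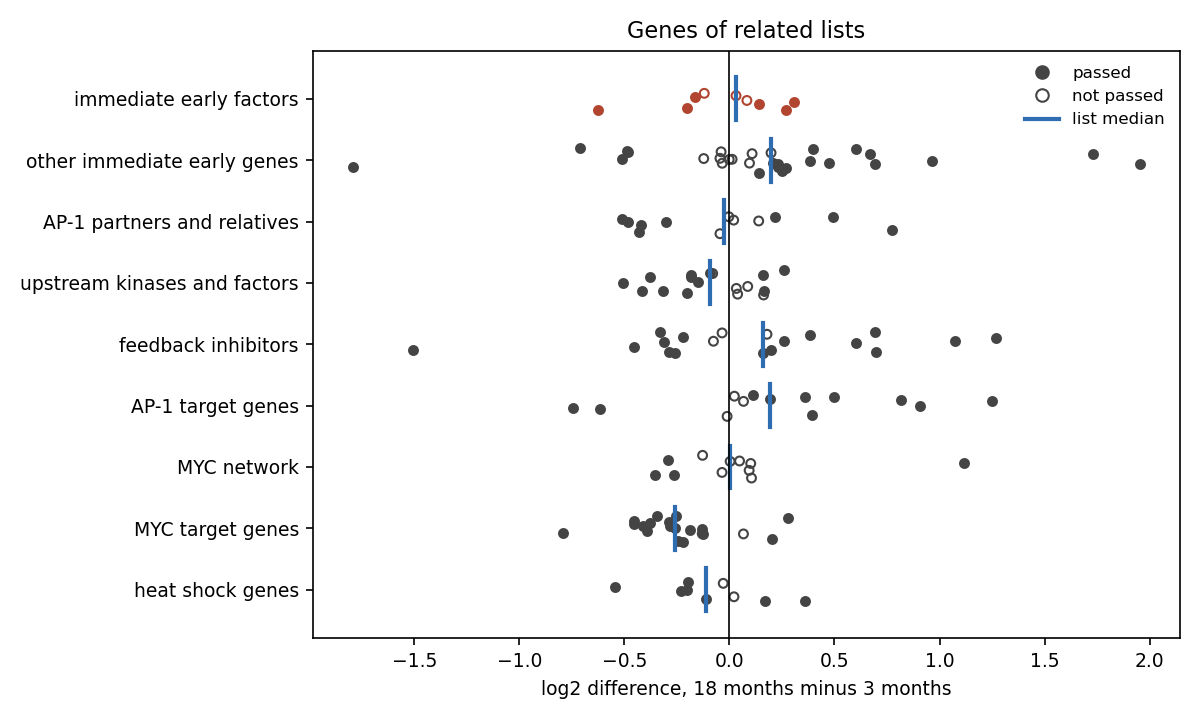
Log2 difference, 18 months minus 3 months, of each measured gene in the immediate early factors and the related lists; filled points passed the test across all genes, open points did not, and bars mark list medians. The immediate early factors lie between -0.63 and 0.31, while the other immediate early genes reach from -1.79 for Ptgs2 to 1.96 for Ccn2.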

How the data were processed

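Expression was measured on 6 arrays, 3 per age, with groups taken from the titles. The authors deposited log2 expression values, 1 per probe set and array, which were used without further scaling. Per the submitters' processing notes MAS5 was used; its settings, the background correction and the scaling are not given in the sources used here. Of 65956 transcript clusters, those annotated to 1 gene by the platform, with symbols updated through RefSeq (GRCm38.p6), gave 30675 genes. Each gene was represented by its brightest such probe set (mean of the 6 arrays), and genes with a mean under 5.40, the median of all transcript clusters, were left out.

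The ages were compared with limma 3.58.1 in R 4.3.3 (lmFit, eBayes with an intensity trend), with Benjamini-Hochberg adjustment over all 20169 genes. Differences are 18-month minus 3-month means on the log2 scale, with 95% intervals. With 3 arrays an age, the smallest two-sided p of an exact permutation test is 0.1. The fit was tested on simulated data. Members and lists were chosen with earlier results of these data known. Named genes are all members, up to 6 genes with the smallest p from each pathway list, and fixed partners of the members. A few further genes were named after their values were seen. Alternatives covered scaling, filter, probe set choice, variance model, a test against 0.3, the replicate number as a block and each array left out. Figures were drawn with matplotlib 3.10.9.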

Additional observations from a re-analysis of the deposited data

How the results depend on the processing

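Over the 15 alternatives, which covered scaling, filter, probe set choice, variance model, block, test against 0.3 and each array left out, Ier3 kept its direction and its call, with differences from -0.69 to -0.53. Jun, Egr2 and Myc kept theirs in 14, all but the test against 0.3. Fos kept its direction in all 15 and its call in 6, and Fosl1 its call in 12; for those lost by scaling or block the cause was not tested. Egr1 did not pass in any alternative, and Ier2 passed in 1, without 3-month replicate 3. Fosb turned to -0.012 after quantile normalization (limma, adjusted p = 0.876), and the cause was not tested. When differences were tested against 0.3, a stricter question by construction, 1981 genes passed, with 0 members higher (limma; also 0 at an unadjusted p under 0.05) and 1 lower. With the replicate block, 7720 genes passed in place of 8181, and Fos was lost (limma, adjusted p = 0.0686, range over its alternatives 0.0147 to 1). Deviations of same-numbered arrays from the means of their ages correlated at -0.05, 0.07 and 0.02, beside -0.08 to 0.04 for other pairs. With so few arrays, these values cannot tell whether same-numbered arrays were prepared together. Median centring turned the balance of all calls to 3957 higher and 3832 lower, against 3720 and 4461. Signal over background limits Fos, Fosb and Egr2, and also Jun and Ier2 if the antigenomic level of 8.94 is used.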
